A study of Homo sapiens with 12 samples.

Results

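The genes described here are 10 redox defence genes of human cells: HMOX1, NQO1, GCLC, GCLM, GSR, TXN, TXNRD1, SRXN1, CAT and the thioredoxin inhibitor TXNIP. They were taken by symbol from the annotation of an Illumina HumanHT-12 V3 bead array, which gave 17 of the 28098 probes that carry 1 symbol. Of those 17 probes 15 were above background, and all 10 genes were among the 10529 genes tested. RNA came from HDLM-2, a cell line established from Hodgkin lymphoma, in 4 groups of 3 arrays (A, B and C). The groups were 100 nM givinostat, an inhibitor of histone deacetylases, 5 µM sorafenib, which inhibits RAF kinases and several receptor tyrosine kinases, both drugs together at those doses, and control. All were collected after 24 hours of exposure. The labels give no agent or vehicle for control, which shares its line and medium with the treated groups. A single line grown in culture stands for the tumour, with none of the cells that surround it in a lymph node. Whether A, B and C are separate cultures is not stated in the labels, so the p-values measure only the spread between arrays, which may be technical.

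Many of these genes are known as outputs of NRF2, a transcription factor that the adaptor KEAP1 marks for destruction until oxidants or electrophiles modify KEAP1. NRF2 then pairs with small MAF proteins at antioxidant response elements. The glutathione branch makes and recycles the main small thiol of the cell, and the thioredoxin branch passes electrons from NADPH to oxidised proteins and peroxiredoxins. TXNIP binds thioredoxin and blocks it. It is also an arrestin-like brake on glucose uptake, its transcription follows glucose through MondoA and MLX, and it is a well known gene raised by histone deacetylase inhibitors in several tumour lines.

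Promoters are printed for TXNIP, CAT and GCLM, which were called changed and hold a motif, and for TXNRD1, which holds the same element as GCLM and was not called. They are RefSeq sequences (GRCh38.p14) of the 250 bases before a transcription start, printed 5′ to 3′ on the gene's strand. Capitals mark TGACNNNGC, the core of the antioxidant response element bound by NRF2, and CCAAT, the box bound by NF-Y, on either strand.
TXNIP, chr1:145996580-145996829, minus strand: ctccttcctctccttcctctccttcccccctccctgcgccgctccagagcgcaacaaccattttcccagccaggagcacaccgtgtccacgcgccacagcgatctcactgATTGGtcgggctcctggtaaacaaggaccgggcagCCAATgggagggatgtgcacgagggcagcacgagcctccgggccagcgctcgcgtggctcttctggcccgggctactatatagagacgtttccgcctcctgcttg
CAT, chr11:34438684-34438933, plus strand: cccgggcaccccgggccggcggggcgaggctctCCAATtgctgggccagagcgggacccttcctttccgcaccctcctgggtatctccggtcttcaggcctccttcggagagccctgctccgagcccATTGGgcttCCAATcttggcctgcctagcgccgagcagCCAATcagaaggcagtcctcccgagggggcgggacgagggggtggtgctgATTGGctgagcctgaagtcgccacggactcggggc
GCLM, chr1:93909431-93909680, minus strand: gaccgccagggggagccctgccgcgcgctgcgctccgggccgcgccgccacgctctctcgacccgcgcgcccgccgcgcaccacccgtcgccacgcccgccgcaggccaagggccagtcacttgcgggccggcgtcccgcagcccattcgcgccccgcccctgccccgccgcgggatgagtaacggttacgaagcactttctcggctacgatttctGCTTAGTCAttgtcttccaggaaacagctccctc
TXNRD1, chr12:104215529-104215778, plus strand: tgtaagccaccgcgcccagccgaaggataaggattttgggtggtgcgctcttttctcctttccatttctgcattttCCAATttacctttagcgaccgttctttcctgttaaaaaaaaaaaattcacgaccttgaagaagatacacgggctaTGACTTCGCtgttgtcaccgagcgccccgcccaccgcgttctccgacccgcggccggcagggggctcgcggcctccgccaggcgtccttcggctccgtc
TXNRD1, chr12:104286782-104287031, plus strand: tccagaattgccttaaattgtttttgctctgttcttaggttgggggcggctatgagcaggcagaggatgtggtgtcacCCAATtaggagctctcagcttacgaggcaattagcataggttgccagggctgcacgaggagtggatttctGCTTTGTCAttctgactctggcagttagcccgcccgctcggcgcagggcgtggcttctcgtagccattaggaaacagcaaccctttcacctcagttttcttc

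Windows were given for 8 of the 10 genes, all but HMOX1 and GSR, 10 windows in all. The antioxidant response element core was in 3 of the 10 windows, those of GCLM and both starts of TXNRD1, and in 10.9% of 35116 RefSeq windows of that length. In GCLM it begins at position -34, counting the base before the start as -1, on the strand opposite the gene. In TXNRD1 it lies at -99 on the gene's strand for one start and at -102 on the opposite strand for the other. CCAAT was in 5 of the 10 windows, of 4 genes, and in 32.0% of all windows. CAT held it 5 times. The TXNIP window above held it at -140 on the opposite strand and at -105 on the gene's strand. The window of another TXNIP start, chr1:145995745-145995994, held none of the motifs and is not printed. The E-box CACGTG was in none of the 10 windows and in 6.34% of all. Only that exact run was searched: imperfect forms such as CACGAG, which the printed TXNIP window holds, were not counted. Its absence therefore does not show that TXNIP lacks a site for MondoA and MLX. A match is a run of letters and not a measured site.

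Arrays averaged 1034 (sorafenib C) to 1630 (control B) units of non-normalized intensity, and 16382 to 17934 of 48803 probes were above background. Sorafenib array C stood apart: it lay 0.221 log2 units (root mean square over genes) from the mean of its group, where the other 11 arrays lay 0.147 to 0.175 from theirs, so the changes of the 10 genes with sorafenib, and with both drugs against sorafenib, are also given without it. Of 8 Hodgkin Reed-Sternberg markers, 7 were above background on all 12 arrays, CD30 (TNFRSF8) among them, and CD70 was on none. Of 12 markers listed for other lineages with a probe, CD2 and CSF1R were above background on all 12 arrays, 6 on some, and CD3E, CD8A, COL1A2 and KRT19 on none. Their summed linear level was 16670 to 18430 on givinostat arrays, 14520 to 14890 on sorafenib arrays and 14560 to 15950 on combination arrays, against 12360 to 14220 on control arrays. Most of that sum was CD2 alone, so it mainly follows 1 gene. CD2 was listed as a T cell marker, and whether the line itself carries it was not tested. The mean log2 level of CD2 was 14.01 with givinostat and 13.61 in control, where that of CSF1R was 7.66 and 8.65. Of 5 such markers that were tested, CD2 and COL1A1 were higher and CSF1R lower with givinostat, COL1A1 was higher and CSF1R and EPCAM lower with both drugs, and none was called with sorafenib. The part of these markers in the results was not tested. In bulk RNA, fewer cells of a kind and less RNA per cell cannot be told apart.

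Levels are log2 of the background-corrected, quantile normalized intensity of a gene's brightest probe, and a change is a difference of group means on that scale with its standard error (SE) from limma. Intensities of different probes are not compared, since each binds its target differently. A gene is called changed at a Benjamini-Hochberg adjusted p under 0.05 over all 10529 genes. With givinostat 5 of the 10 genes changed, HMOX1, NQO1 and TXNIP upward and GCLM and GSR downward, where 33.3% of all genes changed (17.6% upward and 15.7% downward). With sorafenib 2 of 10 changed, CAT upward and HMOX1 downward, against 4.55% of all genes (2.97% upward and 1.58% downward). With both drugs 4 of 10 changed against control, CAT and TXNIP upward and GCLM and GSR downward, against 41.4% of all genes (20.9% upward and 20.5% downward). The median log2 change of the 10 genes was 0.17 with givinostat, -0.06 with sorafenib and 0.09 with both drugs, where the medians of all genes were -0.02, -0.00 and -0.02. The arrays of the 2 groups did not overlap for 7, 3 and 6 of the 10 genes in these 3 comparisons, against 48.4%, 24.4% and 53.9% of all genes. A moderated F test found a difference among the 4 groups for 6 genes, HMOX1, NQO1, GCLM, GSR, CAT and TXNIP, where it did so for 46.5% of all genes. Beside these shares of all genes, the counts single out nothing about the 10 genes as a group with givinostat or with both drugs. With sorafenib the 2 calls are too few to describe a group, and neither was left when only the compared groups were fitted. By limma, 3 of the 10 genes had an unadjusted p under 0.05 with sorafenib, against 21.7% of all genes. What follows describes single genes.

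**Figure D1:**
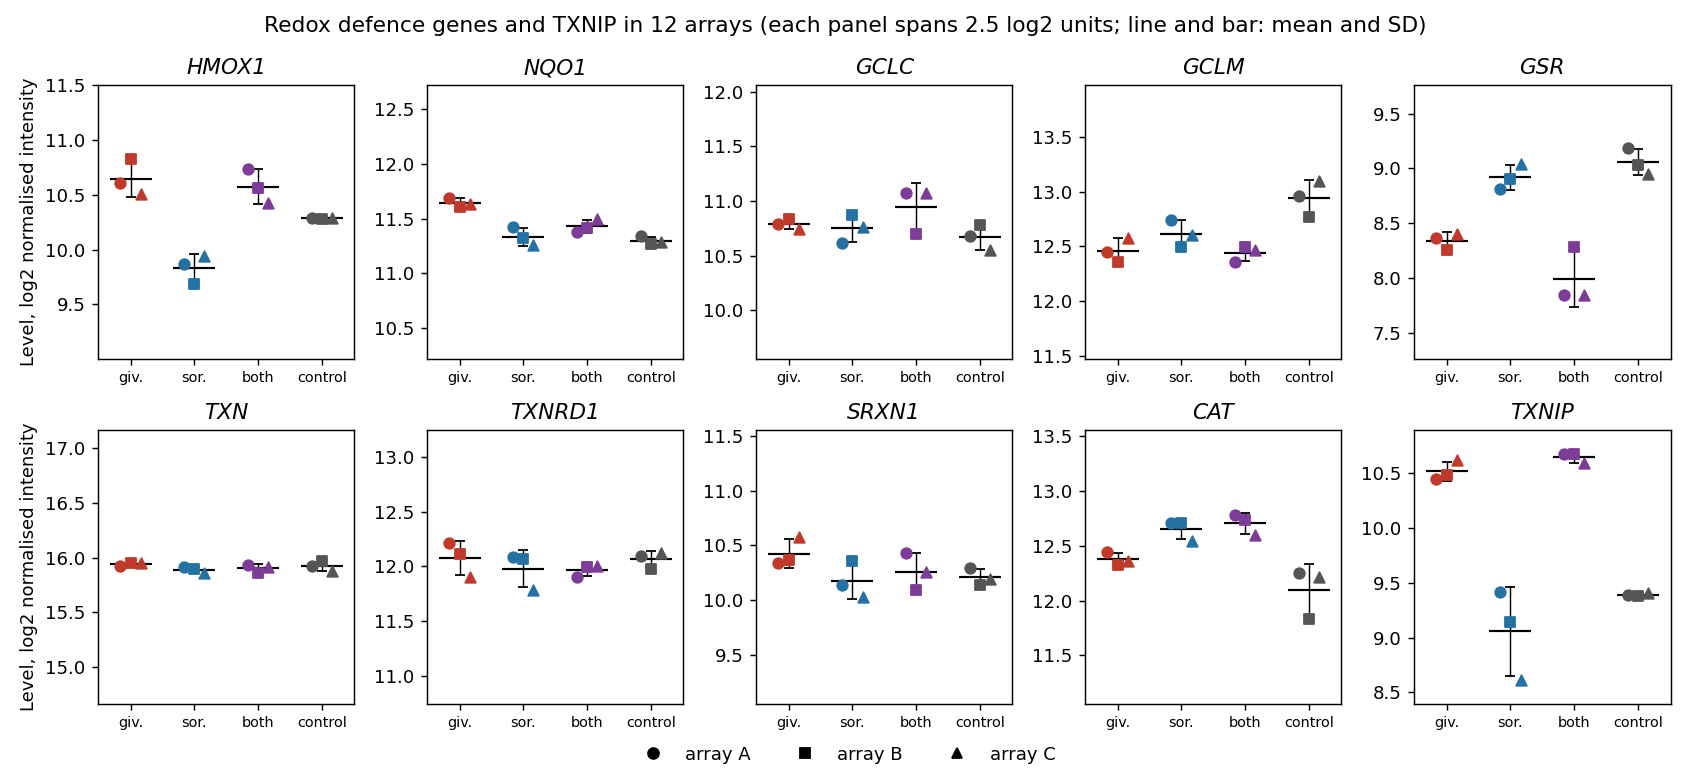
Log2 level of each of the 10 genes (vertical axis, a span of 2.5 log2 units in every panel) on each array, by group from left to right: givinostat, sorafenib, both drugs and control. A symbol is 1 array, the line is the mean of 3 arrays and the bar is the SD. TXNIP lies between 10.45 and 10.68 on the 6 arrays with givinostat and between 8.61 and 9.42 on the 6 without.

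TXNIP had the largest rise of the 10 genes, in both groups that received givinostat. Its log2 level was 10.45, 10.49 and 10.62 on givinostat arrays A, B and C, 9.42, 9.14 and 8.61 on sorafenib arrays, and 10.68, 10.68 and 10.59 on combination arrays, against 9.38, 9.38 and 9.41 on control arrays. All 6 arrays with givinostat lay above all 6 without it, and the sorafenib arrays lay on both sides of control. The change with givinostat was 1.13 ± 0.157 (2.19-fold, adjusted p = 2.23e-04), 96.9% of genes having a smaller change. With both drugs it was 1.26 ± 0.157 against control (2.39-fold, adjusted p = 7.3e-05) and 1.59 ± 0.157 against sorafenib (3.02-fold, adjusted p = 1.95e-05). Without sorafenib array C the change against sorafenib was 1.37 (adjusted p = 9.14e-06). Adding sorafenib to givinostat moved TXNIP by 0.13 (95% interval -0.21 to 0.47, adjusted p = 0.729). Sorafenib alone gave -0.34 (95% interval -0.68 to 0.01, adjusted p = 0.241). That value was set by few arrays, being -0.11 without sorafenib array C and -0.52 without sorafenib array A, and was called in neither case. The interaction, which asks whether the change with both drugs differs from the sum of the single-drug changes, was 0.47 for TXNIP (95% interval -0.02 to 0.95, adjusted p = 0.474).

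TXN, TXNRD1 and SRXN1, the thioredoxin genes among the 10, showed no call in any comparison. TXN is thioredoxin itself. TXN levels were 15.93, 15.95 and 15.95 on givinostat arrays, 15.92, 15.89 and 15.86 on sorafenib arrays and 15.93, 15.86 and 15.91 on combination arrays, against 15.93, 15.97 and 15.88 on control arrays. Its changes were 0.02 with givinostat (95% interval -0.14 to 0.18), -0.03 with sorafenib (-0.20 to 0.13) and -0.02 with both drugs (-0.19 to 0.14). The probe is among the brightest of the platform: its non-normalized intensity was 53630 to 67495, only 0.17% of probes were brighter, and the highest value in the file was 72773. Whether that ceiling limits differences of TXN was not tested.

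TXNRD1 encodes the selenoenzyme that reduces thioredoxin in the cytosol. Its levels were 12.21, 12.11 and 11.90 with givinostat, 12.09, 12.07 and 11.78 with sorafenib and 11.91, 11.99 and 12 with both drugs, against 12.09, 11.98 and 12.12 in control. The groups overlapped, and the changes were 0.01 (95% interval -0.23 to 0.25), -0.09 (-0.32 to 0.15) and -0.10 (-0.34 to 0.14). SRXN1 encodes sulfiredoxin, which repairs overoxidised peroxiredoxins. SRXN1 stood at 10.34, 10.36 and 10.58 with givinostat, 10.14, 10.35 and 10.03 with sorafenib and 10.44, 10.09 and 10.25 with both drugs, against 10.29, 10.14 and 10.19 in control. The 3 givinostat arrays lay above control, yet the change of 0.22 was not called (95% interval -0.04 to 0.47, adjusted p = 0.177). With sorafenib it was -0.03 and with both drugs 0.05. For TXN, TXNRD1 and SRXN1 together, both drugs against either drug and the interaction gave values between -0.16 and 0.08, with adjusted p of 0.519 or more. Without sorafenib array C, sorafenib gave -0.02 for TXN, 0.01 for TXNRD1 and 0.04 for SRXN1, and both drugs against sorafenib -0.00, -0.11 and 0.01.

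Among the glutathione genes, GSR fell most. GSR encodes glutathione reductase, which returns oxidised glutathione to its thiol form with NADPH. It stood at 8.37, 8.26 and 8.40 on givinostat arrays, 8.81, 8.90 and 9.04 on sorafenib arrays and 7.84, 8.29 and 7.85 on combination arrays, against 9.19, 9.03 and 8.95 on control arrays. Every array with givinostat was below every array without it. The change was -0.72 ± 0.126 with givinostat (adjusted p = 0.00107), -1.07 ± 0.126 with both drugs against control (adjusted p = 5.1e-05) and -0.93 ± 0.126 with both drugs against sorafenib (adjusted p = 1.88e-04). Sorafenib alone gave -0.14 (95% interval -0.41 to 0.14, adjusted p = 0.574). Without sorafenib array C, GSR gave -0.20 with sorafenib (adjusted p = 0.472) and -0.87 for both drugs against sorafenib (adjusted p = 0.00102). Both drugs against givinostat gave -0.35 (95% interval -0.63 to -0.07), which was not called (adjusted p = 0.184), and combination array B overlapped the givinostat arrays. The GSR interaction was -0.21 (95% interval -0.60 to 0.18). Without background correction the fall with both drugs was -0.70, still called (adjusted p = 4.95e-06). A second, dimmer GSR probe did not show these falls, as described with the other probe pairs.

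GCLM and GCLC encode the modifier and catalytic subunits of glutamate-cysteine ligase, the rate-limiting enzyme of glutathione synthesis. GCLM was at 12.45, 12.35 and 12.58 with givinostat, 12.74, 12.49 and 12.61 with sorafenib and 12.35, 12.50 and 12.47 with both drugs, against 12.96, 12.76 and 13.10 in control. All 9 drug-treated arrays lay below all 3 control arrays. The fall was called with givinostat (-0.48 ± 0.109, adjusted p = 0.00501) and with both drugs (-0.50 ± 0.109, adjusted p = 0.00305), while sorafenib gave -0.33 ± 0.109 (adjusted p = 0.106). With arrays scaled by their medians, which put the median of all genes at -0.17 for sorafenib, GCLM gave -0.55 (adjusted p = 0.0372). Both drugs gave -0.02 against givinostat and -0.17 against sorafenib, neither called. Without sorafenib array C, GCLM gave -0.33 with sorafenib (adjusted p = 0.18) and -0.18 for both drugs against sorafenib. The interaction was 0.31 (95% interval -0.03 to 0.64, adjusted p = 0.499).

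The catalytic subunit gene did not follow GCLM. GCLC was at 10.79, 10.84 and 10.75 with givinostat, 10.62, 10.87 and 10.76 with sorafenib and 11.07, 10.70 and 11.07 with both drugs, against 10.68, 10.78 and 10.55 in control. No group was clear of control, and the changes were 0.12 (95% interval -0.13 to 0.37), 0.08 (-0.17 to 0.34) and 0.28 (0.02 to 0.53, adjusted p = 0.0771). Combination array B decided the last call: without it GCLC was 0.40 above control (adjusted p = 0.0153) and 0.32 above sorafenib (adjusted p = 0.0481). With all arrays, GCLC with both drugs was 0.16 above givinostat and 0.19 above sorafenib, with an interaction of 0.07, none called. Leaving out sorafenib array C, GCLC gave 0.08 with sorafenib and both drugs 0.20 against sorafenib. The difference between the GCLM and GCLC changes was not tested.

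HMOX1 encodes heme oxygenase 1, which opens heme to biliverdin, iron and carbon monoxide. It moved opposite ways with the 2 drugs. HMOX1 was at 10.60, 10.83 and 10.50 on givinostat arrays, 9.87, 9.68 and 9.94 on sorafenib arrays and 10.74, 10.57 and 10.42 on combination arrays, against 10.29, 10.28 and 10.29 on control arrays. Every givinostat and combination array was above control and every sorafenib array below it. The change was 0.36 ± 0.113 with givinostat (adjusted p = 0.0282), -0.46 ± 0.113 with sorafenib (adjusted p = 0.0422) and 0.75 ± 0.113 with both drugs against sorafenib (1.68-fold, adjusted p = 3.75e-04). Both drugs against control gave 0.29 (95% interval 0.04 to 0.53, adjusted p = 0.0573), and against givinostat -0.07 (-0.31 to 0.18). HMOX1 alone among them had an unadjusted interaction p under 0.05, which 10.9% of all genes had. Its interaction was 0.39 ± 0.159 and was not called by limma (adjusted p = 0.407). The single-drug calls of HMOX1 lay close to the threshold. The givinostat call was lost without any 1 of control arrays A, B or C, or of givinostat arrays A or B, with adjusted p up to 0.116. With median scaling it was 0.23 (adjusted p = 0.244), where all genes had a median of -0.12, and without the detection filter the adjusted p was 0.0566. The sorafenib call was lost without any 1 control or sorafenib array, or without givinostat array A or combination array B, with adjusted p up to 0.125. Without sorafenib array C the change was -0.51 (adjusted p = 0.0581), and both drugs against sorafenib gave 0.80 (adjusted p = 7.85e-04). The adjusted p of HMOX1 with sorafenib was also 0.0834 without the detection filter, 0.0969 with only the compared groups fitted and 0.0584 with the array letter as a block. Both drugs against control passed without givinostat array B (adjusted p = 0.0468) or without combination array C (adjusted p = 0.0383). It also passed without background correction (0.0382), with the authors' table (0.0381), with detection on all 12 arrays (0.0494) and with array weights (0.0427).

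NQO1 encodes a quinone reductase and is a textbook NRF2 target. NQO1 was at 11.69, 11.60 and 11.63 with givinostat, 11.42, 11.32 and 11.26 with sorafenib and 11.38, 11.42 and 11.50 with both drugs, against 11.34, 11.27 and 11.29 in control. The givinostat arrays were the highest 3 of the 12, and the combination arrays lay between them and control. It rose by 0.34 ± 0.081 with givinostat (adjusted p = 0.00635), a call lost with median scaling (0.19, adjusted p = 0.298). Sorafenib gave 0.04 (95% interval -0.14 to 0.21) and both drugs 0.13 (-0.04 to 0.31, adjusted p = 0.21). Both drugs against givinostat gave -0.21 (95% interval -0.39 to -0.03), which was not called after adjustment (adjusted p = 0.214). Both drugs against sorafenib gave 0.10 and the interaction -0.25 (adjusted p = 0.462). NQO1 gave 0.08 with sorafenib and 0.06 for both drugs against sorafenib when sorafenib array C was left out.

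CAT encodes catalase, the peroxisomal enzyme that splits hydrogen peroxide. It was highest in the groups with sorafenib, at 12.71, 12.71 and 12.55 with sorafenib and 12.78, 12.73 and 12.60 with both drugs. CAT was at 12.44, 12.32 and 12.36 with givinostat and at 12.25, 11.83 and 12.21 in control. All treated arrays lay above control, and all 6 arrays with sorafenib lay above the 6 without. The change was 0.56 ± 0.116 with sorafenib (1.47-fold, adjusted p = 0.0243), larger than that of 95.7% of genes, and 0.60 ± 0.116 with both drugs (1.52-fold, adjusted p = 0.00139). Givinostat gave 0.28 ± 0.116 (adjusted p = 0.086), and both drugs against givinostat 0.33 ± 0.116 (adjusted p = 0.175). Both drugs against sorafenib gave 0.05 and the interaction -0.23 (adjusted p = 0.632). The low control array B enters every comparison with control. The sorafenib call was lost without control array B (adjusted p = 0.0569), without sorafenib array A (0.053) and without sorafenib array B (0.0719), and held without sorafenib array C (0.61, adjusted p = 0.0353), where both drugs against sorafenib gave -0.01. With median scaling the sorafenib change was 0.35 (adjusted p = 0.151), and with only the compared groups fitted the adjusted p was 0.11.

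**Figure D2:**
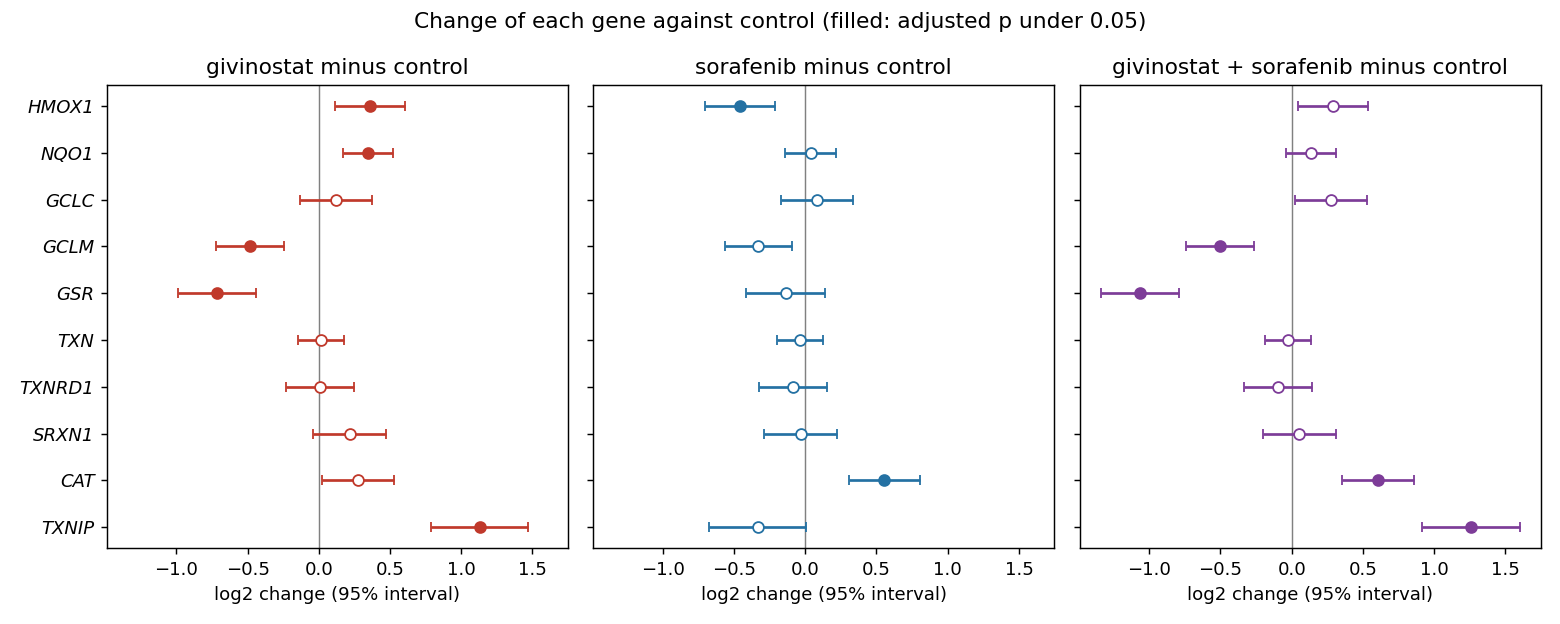
Log2 change of each of the 10 genes (horizontal axis) with its 95% interval in the comparisons of givinostat, sorafenib and both drugs with control, from left to right. Filled symbols have an adjusted p under 0.05. TXNIP stands at 1.13 with givinostat and 1.26 with both drugs, GSR at -0.72 and -1.07, and CAT at 0.56 with sorafenib and 0.60 with both.

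What each drug added to the other differed in the number of calls. Both drugs against sorafenib changed 3 of the 10 genes, HMOX1 and TXNIP upward and GSR downward, where 35.3% of all genes changed (17.8% upward and 17.5% downward) and 46.7% had arrays that did not overlap. Both drugs against givinostat changed 0 of 10 by limma, with 3 (NQO1, GSR and CAT) at an unadjusted p under 0.05, where 1.34% of all genes changed (0.845% upward and 0.494% downward) and 17.1% had such an unadjusted p. The arrays did not overlap for NQO1 and CAT, 2 of the 10, against 25.7% of all genes. The interaction called 0 of 10, against 0.019% of all genes (0.0095% in each direction). These comparisons share groups with those against control and are not independent of them.

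Of the 7 genes with a second probe, 5 had both probes above background, and the pairs did not all tell the same story. The second GSR probe, at mean log2 levels of 7.10 with givinostat, 7.10 with sorafenib and 7.34 with both drugs against 7.27 in control, gave changes of -0.17, -0.17 and 0.07 and no call. With the mean of both GSR probes the change was -0.44 with givinostat (adjusted p = 0.0409) and -0.50 with both drugs (adjusted p = 0.0206), but against sorafenib -0.34 (adjusted p = 0.103). The second CAT probe rose by 0.51 ± 0.12 with both drugs (adjusted p = 0.0059), gave 0.41 with sorafenib (adjusted p = 0.0839) and was at 0.00 with givinostat. The mean of both CAT probes put the combination 0.42 above givinostat (adjusted p = 0.0268). The second GCLM probe fell by 0.68 ± 0.205 with both drugs (adjusted p = 0.0227) and gave -0.34 with givinostat (adjusted p = 0.245). The TXNRD1 pair differed most with sorafenib, at -0.09 for the brightest and -0.40 for the second probe (adjusted p = 0.118). Over the 12 arrays the correlation between the 2 probes was 0.632 for CAT, 0.595 for GCLM, 0.293 for TXNRD1, -0.10 for GSR and -0.23 for TXN. The second probes of NQO1 and GCLC were above background on 2 and 1 of the 12 arrays. HMOX1, SRXN1 and TXNIP had 1 probe each, so their values have no such check.

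**Figure D3:**
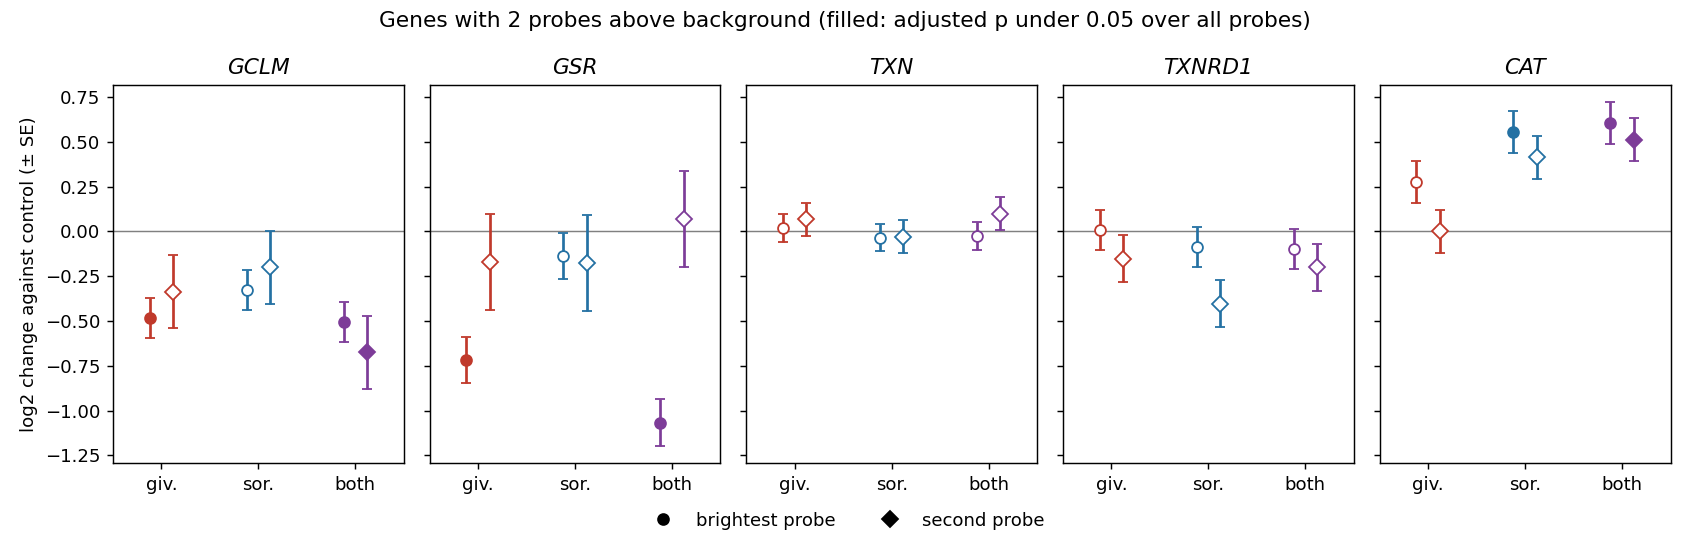
Log2 change with its SE for both probes of GCLM, GSR, TXN, TXNRD1 and CAT in the comparisons with control. Circles are the brightest probe and diamonds the second. The GSR probes stand apart, at -1.07 and 0.07 with both drugs, and the CAT probes lie close, at 0.60 and 0.51.

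The profiles of the 10 genes over the 12 arrays were compared as a description, since the points share their groups. TXNIP rose and fell with HMOX1 (Pearson r = 0.836) and against GSR (r = -0.89). With the group means removed these were -0.23 and -0.30. Among the genes that passed the F test, the 3 most like TXNIP were TPST2 (r = 0.994), MVB12A (0.992) and DEXI (0.991). For GSR they were KEAP1 (0.976), MCM5 (0.972) and B3GALT6 (0.968), and for HMOX1 TLE2 (0.951), SLX1A (0.937) and BAG3 (0.931). Those most like GCLM were NSUN2, TAF6L and PPP1R14B (0.948 to 0.962). For NQO1 they were EID1, DNAJC14 and HEPACAM2 (0.936 to 0.938), and for CAT TIMP4, JUND and ASNS (0.93 each). For the genes that failed the F test the closest were SGCB for GCLC (0.88), SERINC3 for SRXN1 (0.843), ALG14 for TXN (0.821) and TMEM128 for TXNRD1 (0.664). Their neighbours were sought in the same pool, chosen for group differences, so these r are not comparable with those of the other genes.

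KEAP1 had the profile closest to the brightest GSR probe, with which the second GSR probe correlated at -0.10. KEAP1 is also the repressor of NRF2. Its log2 level was 11.03, 11.17 and 11.27 with givinostat, 11.77, 11.77 and 11.91 with sorafenib and 10.76, 11.11 and 10.94 with both drugs, against 12.06, 12.02 and 11.78 in control. It fell by 0.80 ± 0.115 with givinostat (adjusted p = 2.8e-04) and by 1.02 ± 0.115 with both drugs (adjusted p = 3.62e-05), and gave -0.14 with sorafenib (adjusted p = 0.54). NFE2L2, the gene of NRF2, was called in none of these (-0.13, -0.05 and -0.05). Of 9 tested NRF2 regulators, 3 changed with givinostat (1 higher, 2 lower), 2 with sorafenib (1 higher, 1 lower) and 3 with both drugs (all lower), with median changes of -0.13, 0.06 and -0.22. Those are 33.3%, 22.2% and 33.3% of the list, beside 33.3%, 4.55% and 41.4% of all genes. MAFF, a small MAF partner of NRF2, fell by 0.73 with givinostat, by 0.84 with sorafenib and by 0.64 with both drugs. Its sorafenib call was lost without control array A or C, or sorafenib array B or C (adjusted p = 0.068 to 0.0916), and its combination call without control array A (0.0646) or combination array B (0.0566). The MAFF call with sorafenib was also lost without the detection filter and with only the compared groups fitted. With the mean of its probes MAFF gave -0.37 with sorafenib (adjusted p = 0.111) and -0.22 with both drugs (adjusted p = 0.189). NFE2L1, a relative of NRF2, rose by 0.41 with sorafenib, a call lost in 14 of 22 alternatives. These included each control, sorafenib and combination array left out and givinostat array A left out (adjusted p = 0.0539 to 0.145), median scaling (0.372), no detection filter (0.0945), only the compared groups (0.114) and the array letter as a block (0.0522). MAFG, another partner, rose by 0.50 with givinostat, a call lost with median scaling (adjusted p = 0.08) and without control array A (0.071) or givinostat array A (0.0721).

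Of 14 other NRF2 targets tested, 3 were higher and 2 lower with givinostat and again with both drugs, and 0 changed with sorafenib by limma (3 at an unadjusted p under 0.05). These 35.7% called with givinostat and with both drugs lie near the 33.3% and 41.4% of all genes. Their median changes were 0.01, 0.04 and -0.03. AKR1C3, an aldo-keto reductase, was above background on no control array and, set against the background limit after background correction, was at least 4.92-fold higher with givinostat and at least 3.75-fold higher with both drugs. Without background correction its log2 change was smaller, at 1.51 and 1.26. SLC48A1, a heme transporter, rose by 0.76 and 0.83 and BLVRB, a biliverdin and flavin reductase, by 0.64 and 0.94 in the same 2 groups. CBR3, a carbonyl reductase, fell by 0.93 and 0.94.

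Of 21 other glutathione genes, 5 were higher and 2 lower with givinostat, 2 higher with sorafenib and 7 higher and 1 lower with both drugs (medians 0.10, 0.08 and 0.17). The shares called, 33.3%, 9.52% and 38.1%, stand beside 33.3%, 4.55% and 41.4% of all genes. GSTA4, a transferase for lipid peroxidation products, rose by 1.39 with givinostat and by 1.42 with both drugs, or by 0.75 and 0.78 without background correction. GSTM2 rose by 0.84 and 1.32 and GSTM1 by 0.53 and 0.74, the members of this family being so alike in sequence that a probe may read more than 1. MGST2 was above background on no control array and by the same limit was at least 1.48-fold higher with givinostat and at least 1.56-fold higher with both drugs. With sorafenib it was at least 1.49-fold higher by that limit, where the fitted limma change of 0.88 was not called (adjusted p = 0.056). Without background correction the log2 change of MGST2 was 0.34 with givinostat and 0.36 with both drugs. SLC3A2, the partner chain of the cystine transporter, fell by 0.44 with givinostat and was at -0.01 with both drugs. The 2 calls with sorafenib were GSTM1 (0.41) and IDH1, a source of cytosolic NADPH (0.48). Both were lost under several alternatives, and without any 1 control array the adjusted p was 0.052 to 0.0883 for GSTM1 and 0.0611 to 0.135 for IDH1.

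Of 16 thioredoxin, peroxiredoxin and glutaredoxin genes beside TXN and TXNRD1, 2 were higher and 3 lower with givinostat, 1 lower with sorafenib, and 3 higher and 4 lower with both drugs (medians -0.05, -0.01 and -0.02). The shares called, 31.2%, 6.25% and 43.8%, lie near those of all genes (33.3%, 4.55% and 41.4%). SESN3, a sestrin, rose by 1.28 with givinostat and by 1.39 with both drugs, or by 0.60 and 0.66 without background correction. TXNRD2, the mitochondrial thioredoxin reductase, fell by 0.80 and 1.18, where TXNRD1 was not called. MSRB1 and MSRB2 repair oxidised methionine and went opposite ways: MSRB1 fell by 0.43 with givinostat and by 0.60 with both drugs, and MSRB2 rose by 0.53 and 0.63. The sorafenib call was MSRB1 (-0.41), lost without control array A or C, or sorafenib array B or C (adjusted p = 0.0532 to 0.0841). That call was also lost without the detection filter and with only the compared groups fitted. With median scaling the givinostat call of MSRB2 was lost (0.37, adjusted p = 0.0573). Among 6 genes of superoxide removal and heme breakdown, 1 was higher with givinostat (BLVRB), 2 with both drugs (BLVRB and BLVRA), and 0 with sorafenib by limma, also at an unadjusted p under 0.05. The shares of 16.7% and 33.3% lie below the 33.3% and 41.4% of all genes. The BLVRA call was lost with median scaling (0.34, adjusted p = 0.119).

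TXNIP belongs to the alpha-arrestins, and 11 tested genes listed as its relatives, its regulators or genes linked to it or to thioredoxin were described in the same way. MAP3K5 and NLRP3 are in that list as linked genes, not as relatives or regulators. With givinostat 4 were higher and 2 lower, with both drugs 4 higher and 3 lower, and with sorafenib 0 changed by limma, 1 having an unadjusted p under 0.05 (medians 0.24, 0.13 and -0.04). The shares called were 54.5%, 63.6% and 0%, beside 33.3%, 41.4% and 4.55% of all genes. Several of the combination calls were not stable: ARRDC1 was lost in 11 of 21 alternatives, and FOXO1 in 10, FOXO3 in 7 and HDAC2 in 6 of 22. ARRDC3, a related arrestin, rose by 0.49 with givinostat and by 0.41 with both drugs. Its combination call was lost without control array B (adjusted p = 0.0667), combination array B (0.0671) or combination array C (0.0622), and with median scaling (0.0502). FOXO1 and FOXO3, transcription factors of nutrient and stress signalling, rose by 0.32 and 0.54 with givinostat. With median scaling the givinostat calls of ARRDC3, FOXO1 and FOXO3 were lost (adjusted p = 0.0568, 0.375 and 0.0997). MAP3K5, the kinase ASK1 that thioredoxin holds inactive, fell by 0.62 and 0.72. DDIT4, an inhibitor of mTORC1 signalling, fell by 0.32 with both drugs, a call lost without control array C (-0.27, adjusted p = 0.0532), and was at -0.07 with givinostat.

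**Figure D4:**
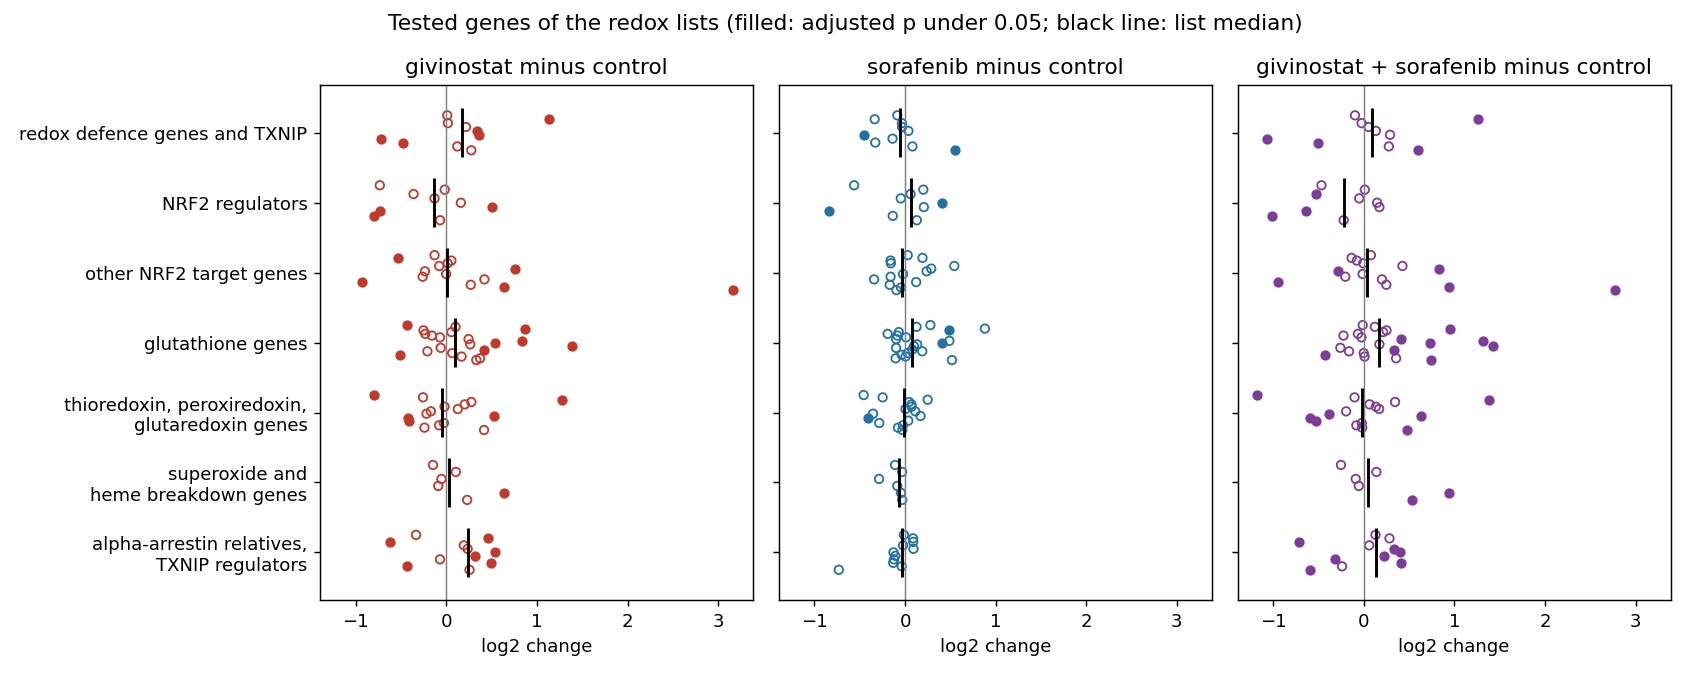
Log2 change of every tested gene of the 10 redox genes (top) and of the 6 pathway lists (1 dot per gene, filled at an adjusted p under 0.05) in the comparisons of givinostat, sorafenib and both drugs with control, with the list's median as a black line. Medians lie between -0.22 and 0.24. The dot farthest right with givinostat and with both drugs is AKR1C3 at its fitted value, which is no bound.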

How the data were processed

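Biotin-labelled RNA was hybridised to bead arrays and read with BeadStudio, per the submitters' processing notes, which give no version. For 48803 probes the authors deposited the intensity averaged over beads, without normalization, and beside it a fraction from 0 to 1 whose header calls it a detection p-value. This deposited fraction rose with intensity (lowest Spearman correlation 0.992) and was read as 1 minus that p. The processed values that the authors deposited are quantile normalized linear intensity and served as an alternative.

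From the non-normalized intensities, limma 3.58.1 in R 4.3.3 (with statmod 1.5.0 and version 1.17.8 of data.table) corrected the background by normexp, using the detection p to set it and adding an offset of 16. Quantile normalization and log2 followed. Probes were kept if some group had a detection p under 0.05 on each of its 3 arrays. Symbols came from the platform annotation: 28098 probes carried a single symbol, 13 several and 20692 none there. A gene was read from its brightest probe on average, leaving 10529 genes. One limma fit of 4 group means (8 residual and 4.01 prior degrees of freedom) gave two-sided tests, adjusted by Benjamini-Hochberg over all genes. Where no array of a group detected a gene, its fold is given against the background limit, as "at least". The code of the fit was checked on simulated data with independent normal noise and 200 genes shifted. That setting has fewer changed genes than these data and no correlation between genes, so it does not measure error rates here. Figures and motif searches used Python 3.11.15, pandas 2.3.3 and matplotlib 3.10.9.

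The 10 genes, the pathway lists and the markers were chosen with earlier results of these data known. From each list up to 4 tested genes per comparison were eligible to be named, those with the smallest p, and NFE2L2 was added after its values were seen. For each of the 10 genes the 3 genes with the highest correlation were found among those passing the F test. The settings varied were background correction, scaling, the authors' table, the detection filter, the probe rule, the groups fitted, the array letter as a block, array weights and each array left out. Precision is limited by having 3 arrays a group.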

Additional observations from a re-analysis of the deposited data

How the results depend on the processing

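Of 590 values of the 10 genes under other settings, 571 stayed on the same side of the threshold, 9 lost and 10 gained a call. Of 720 with 1 array left out, 700 did so, 16 lost and 4 gained a call. In neither set did a called value change sign. Values that were not called could do so, such as GCLC with givinostat (0.12, and -0.02 at the lowest of the other settings). The calls of TXNIP and GCLM and those of GSR against control held in all of them. Of the 10 genes, 3 changed with givinostat under median scaling. With sorafenib the count was 1 without the detection filter and 0 when only the compared groups were fitted. Both drugs against givinostat called 1 (CAT) with the mean of the probes. With 1 array left out the counts were 4 to 5 with givinostat, 0 to 2 with sorafenib, 4 to 5 with both drugs, 3 to 4 against sorafenib, 0 against givinostat and 0 in the interaction. For CAT with givinostat and for GCLC and HMOX1 with both drugs, a call was gained without background correction and with the authors' table (adjusted p = 0.0486, 0.0489 and 0.0381 to 0.0382). HMOX1 with both drugs also gained it with detection on all 12 arrays (0.0494) and with array weights (0.0427). Among all genes, both drugs against givinostat called 306 in each of those 2 settings, 88 with median scaling, 68 without the detection filter, 81 with only the compared groups and 359 with array weights, against 141, and 31 to 226 with 1 array left out. The interaction called 8 in each of the same 2 settings, 1 with median scaling, without the filter, with detection on all 12 arrays and with the mean of probes, 0 with the block, and 0 to 2 with 1 array left out, against 2. Sorafenib called 214 without the filter, 75 with only the compared groups and 165 to 406 with 1 array left out, against 479. The causes were not tested. Median scaling moved the median log2 change of all genes to -0.12 with givinostat, -0.17 with sorafenib and -0.09 with both drugs, and gave 1106 higher and 1996 lower genes (1856 and 1653 otherwise), 79 and 366 (313 and 166), and 1503 and 2287 (2201 and 2156). For both drugs against givinostat it gave 72 and 16 (89 and 52), and against sorafenib 1951 and 912 (1873 and 1847). With the array letter as a replicate block 1 of the 10 genes, CAT, was called with sorafenib, HMOX1 being lost (adjusted p = 0.0584), and no other call on the 10 genes changed. Arrays of the same letter correlated at -0.06 to 0.25 (median 0.03) in their deviations from group means over 18 pairs, 5 of them above 0.1. Arrays of different letters did so at -0.24 to 0.12 (median -0.02) over 36 pairs, 2 of them above 0.1. By mean correlation, 6 of 12 arrays were closest to their own letter. The labels state no pairing, and none was taken in the main fit. Whether the letters pair samples was not settled.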
